A study of Mus musculus with 6 samples.

Results

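The genes of the vascular endothelial growth factor (VEGF), angiopoietin and ephrin systems were followed in smooth muscle cells of the mouse pulmonary artery (mPASMCs) in which the long noncoding RNA *Snhg18* was knocked down. Members were picked by gene type and symbol, as the protein-coding genes whose symbols name a VEGF ligand or receptor, an angiopoietin, a Tie receptor, an angiopoietin-like protein, an ephrin or an Eph receptor. They were 42 of the 55487 genes in the deposited table, of which 21936 were protein-coding. There were 8 VEGF genes, 5 angiopoietin and Tie genes, 7 angiopoietin-like genes, 8 ephrin ligands and 14 Eph receptors, or 23 ligands and 19 receptors in all.

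The mPASMCs came from a commercial supplier and were transfected either with a control siRNA (si-NC, 3 libraries) or with an siRNA against *Snhg18* (si-*Snhg18*, 3 libraries). The libraries of each group are numbered 1 to 3, and the labels describe no other treatment. The strain, sex and age of the donor animals and the oxygen level of these cultures are not given in the sources used here. Nothing states that the libraries of a group came from separate cultures, so p-values measure the spread between these libraries, which may be technical. *Snhg18* itself was at 23.5, 22.4 and 22.2 CPM (read counts scaled to library size) in si-NC libraries 1 to 3 and at 10.6, 11.2 and 9.97 CPM in si-*Snhg18* libraries 1 to 3, so that 46.7% of the transcript remained (log2 fold change -1.10, standard error (SE) 0.10, adjusted p = 0.00727 by the quasi-likelihood test of edgeR, which was used throughout unless another tool is named).

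The libraries held 18097718 to 25988746 reads, and the members took 0.203% to 0.208% of the reads in si-NC libraries and 0.180% to 0.196% in si-*Snhg18* libraries. A count of 3 reads, the limit that a count of 0 allows, corresponds to 0.115 to 0.166 CPM, and such limits cover counting error only. All 8 smooth muscle markers were detected, led by *Acta2* at 867 CPM in si-NC cells and *Tagln* at 684 CPM. *Myh11*, *Des* and *Myocd* of that list were at 18.6, 11.6 and 1.06 CPM. The list summed to 1750 to 1896 CPM in si-NC libraries. The 5 fibroblast markers summed to 2264 to 2957 CPM there, with *Col1a1* at 1980 and *Pdgfra* at 477 CPM. The 10 endothelial markers summed to 13.8 to 15.8 CPM in si-NC libraries and 13.3 to 18.2 CPM in si-*Snhg18* libraries, with *Cldn5* and *Robo4* at 0 reads everywhere and *Pecam1* at 14 reads or fewer. The 8 leukocyte markers summed to 9.11 to 12.0 CPM and 8.88 to 14.4 CPM, with *Cd3e* and *Adgre1* at 0 reads.

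VEGF ligands are secreted proteins that signal through the receptor tyrosine kinases Flt1, Kdr and Flt4, which are best known from blood and lymphatic endothelium, and smooth muscle cells are a source of the ligands in the vessel wall. Angiopoietins act on the endothelial receptor Tek (Tie2), with Tie1 as a partner that has no angiopoietin of its own, while angiopoietin-like proteins share their structure but do not bind Tek and partly act on lipid metabolism. Ephrins are cell-surface ligands that bind Eph receptors on neighbouring cells, and ephrin-B2 and its receptor EphB4 are classical markers of arterial and venous identity.

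Of the 42 members, 35 passed the filter on low counts and were tested together with all other genes, 14531 in all. Among the others, *Epha6*, *Ephb1* and *Angptl1* had 0 reads in all 6 libraries, and *Tie1*, *Epha10* and *Epha8* reached at most 1, 3 and 4 reads in any library. In bulk RNA, fewer cells of a type and less RNA per cell cannot be told apart.

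None of the 35 tested members passed an adjusted p of 0.05 in the planned fit without the replicate number, a share of 0 against 7.36% of all tested genes (3.65% higher and 3.71% lower in si-*Snhg18* cells). At an unadjusted p under 0.05 there were 7 members, or 20%, against 24.9% of all tested genes. DESeq2 and limma-voom also called 0 members, where they called 2069 and 1036 of all 14531 tested genes. The likelihood ratio test of edgeR called 1 member, *Tek*, and 1340 of all tested genes. Fold changes were above 0 for 14 members and below 0 for 21, and their median log2 fold change was -0.06, against 0.01 over all tested genes. The groups did not overlap for 7 members, or 20% (3 higher, *Vegfc*, *Angptl6* and *Ephb3*, and 4 lower, *Tek*, *Angptl4*, *Efna2* and *Ephb6*), against 30.9% of all genes.

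When the replicate number was added as a block, 7 of 35 members passed, or 20%, against 27.2% of all tested genes. *Vegfb* and *Vegfc* were higher in si-*Snhg18* cells (the background was 13.6%), and *Tek*, *Angptl4*, *Efna5*, *Efnb2* and *Epha3* were lower (13.6%). The difference between the members' shares and those of all genes was not tested. With the block, DESeq2 also called 7 members (21.3% of all genes) and limma-voom 8 (27.4% of all genes), of which 5 and 7 were among those of edgeR. DESeq2 did not call *Tek* (adjusted p = 0.176) and *Efna5* (adjusted p = 0.0626) and called *Flt1* and *Angptl7* instead. The calls of the blocked edgeR fit rested on the libraries numbered 3. Without that pair it called 0 members, with 5.07% of all genes, and 9 members had an unadjusted p under 0.05, with 25.2% of all genes, while the log2 fold changes of the 7 kept their sign. It called 12 members without the pair numbered 1, with 31.8% of all genes, among them all 7. Without the pair numbered 2 it called 8, with 24.3% of all genes, of which 5 were among the 7, and *Tek* and *Angptl4* were lost. The plot of fold changes sets the fits side by side.

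**Figure D1:**
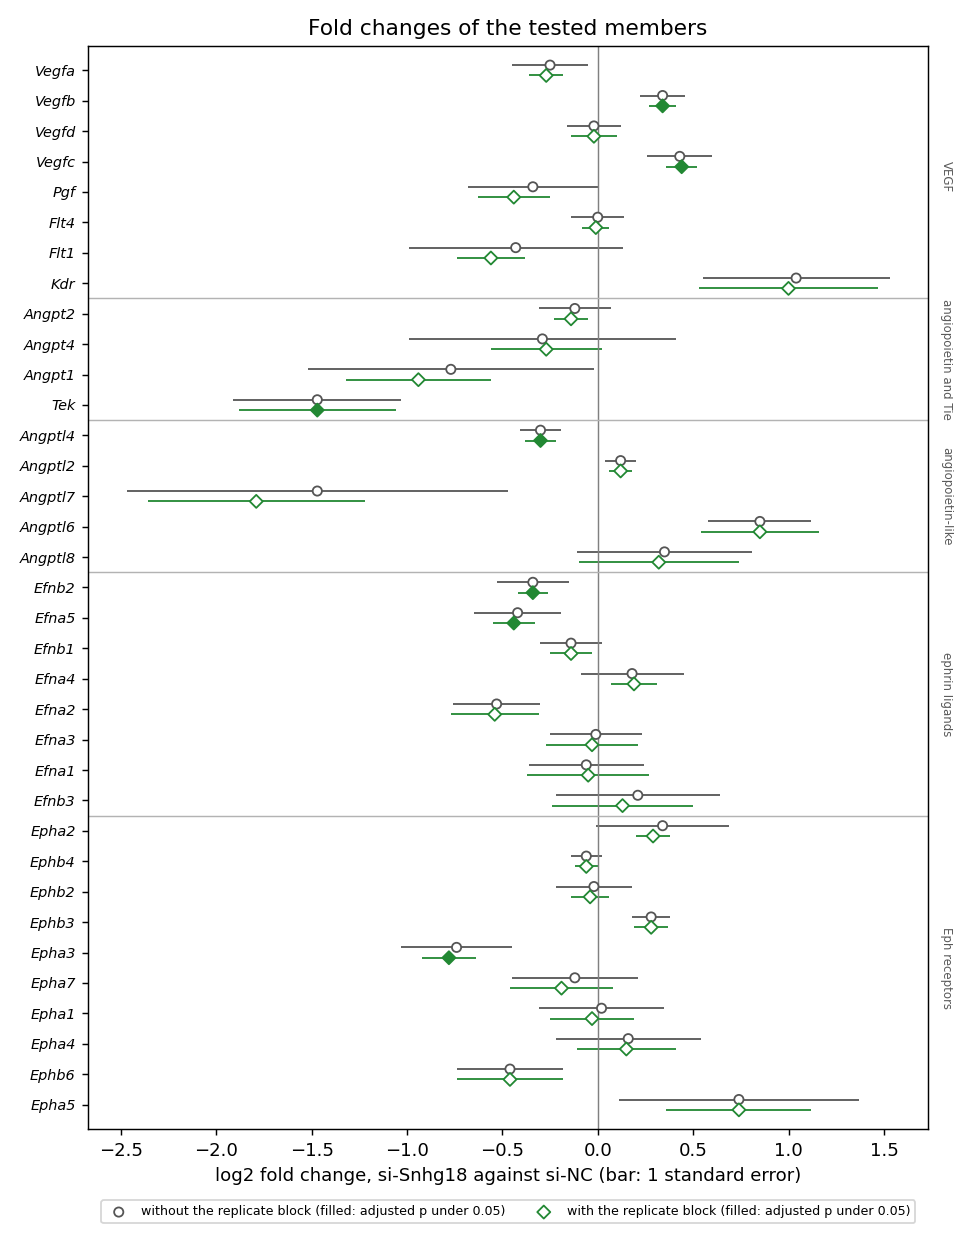
Log2 fold change of each of the 35 tested members (x axis, si-*Snhg18* against si-NC, bars 1 SE) without (circles) and with (diamonds) the replicate number as a block, grouped by family. No circle and 7 diamonds are filled, which marks an adjusted p under 0.05, and the fold changes of the fits lie close together while the bars are mostly shorter with the block.

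Among the VEGF ligands, *Vegfa*, the main angiogenic factor, was the most abundant per exon length, at 127 ± 19.2 CPM per kb (SD, n = 3) in si-NC cells. *Vegfb*, which binds Flt1, followed at 43.4 ± 3.06 CPM per kb, then *Vegfd* at 22.4 ± 3.18, *Pgf* at 16.5 ± 2.03 and *Vegfc* at 16.1 ± 3.20 CPM per kb. The ranges of *Vegfd*, *Pgf* and *Vegfc* lay close to one another, and the order among them was not tested. *Vegfc* and *Vegfd* encode the ligands of Flt4 that act on lymphatic vessels, and *Pgf* encodes placental growth factor, a ligand of Flt1.

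*Vegfa* (ENSMUSG00000023951; chromosome 17, 46016993 to 46032369, minus strand, GRCm38) was at 456, 365 and 493 CPM in si-NC libraries 1 to 3 and at 457, 271 and 377 CPM in si-*Snhg18* libraries 1 to 3. The groups overlapped, since si-*Snhg18* 1 lay with the si-NC libraries, and the library numbered 2 was the lowest of each group. The log2 fold change was -0.25 (SE 0.20, adjusted p = 0.494 in edgeR), and with the block it was -0.27 (adjusted p = 0.0608). Here the pair numbered 1 decided the call: its log2 ratio was 0.00, against -0.43 and -0.39 in the other pairs. Without it the blocked value was -0.41 (adjusted p = 7.25e-07), in a fit that called 31.8% of all genes. Leaving out the pair that differs lowers the p by that choice, so it is not separate support. Leaving out single libraries without the block gave an adjusted p of 0.28 to 0.755 in edgeR.

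*Vegfb* (ENSMUSG00000024962; chromosome 19, 6982473 to 6987651, minus strand) was at 59.6, 51.7 and 55.5 CPM in si-NC libraries and at 76.9, 59.4 and 75.3 CPM in si-*Snhg18* libraries. The groups touched, with si-*Snhg18* 2 just below si-NC 1, but the si-*Snhg18* library was the higher of each same-numbered pair. Its log2 fold change was 0.34 (SE 0.12) with an adjusted p of 0.139 without the block and 0.0134 with it, both in edgeR, and 0.167 with the block and without the pair numbered 3.

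*Vegfc* (ENSMUSG00000031520; chromosome 8, 54077606 to 54187096, plus strand) was at 42.5, 30.5 and 45.2 CPM in si-NC libraries and at 54.8, 46.3 and 58.4 CPM in si-*Snhg18* libraries. Every si-*Snhg18* library lay above every si-NC library, and the library numbered 2 was the lowest of each group. On the log2 scale the difference was 0.43 (SE 0.17, adjusted p = 0.178 in edgeR) without the block and 0.44 (adjusted p = 0.0071) with it, or 0.48 (adjusted p = 0.0756) with the block and without the pair numbered 3. *Vegfd*, on the X chromosome, had a log2 fold change of -0.02 (SE 0.14) and *Pgf* one of -0.34 (SE 0.34), and neither passed in either fit.

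As a share of the summed CPM per kb of the VEGF ligands, *Vegfa* made up 56.1%, 53.1% and 59.3% in si-NC libraries and 51.1%, 46.1% and 48.3% in si-*Snhg18* libraries. The groups did not overlap, with means of 56.1 ± 3.07% and 48.5 ± 2.55% (SD, n = 3 each, exact two-sided permutation p = 0.1, the smallest that 3 libraries against 3 can give). The share of *Vegfb* was 19.3 ± 1.22% in si-NC and 25.4 ± 2.03% in si-*Snhg18* libraries, and that of *Vegfc* was 7.09 ± 0.738% and 10.1 ± 1.28%, each without overlap (SD, n = 3, exact permutation p = 0.1). The shares of *Vegfd* (10.1 ± 2.58% and 10.3 ± 1.32%, exact permutation p = 0.9) and *Pgf* (7.32 ± 0.503% and 5.73 ± 1.64%, exact permutation p = 0.2) overlapped. Shares within a pool sum to a whole, so a lower share of *Vegfa* and higher shares of the other ligands are not separate results. At this number of libraries no share could pass 0.05.

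**Figure D2:**
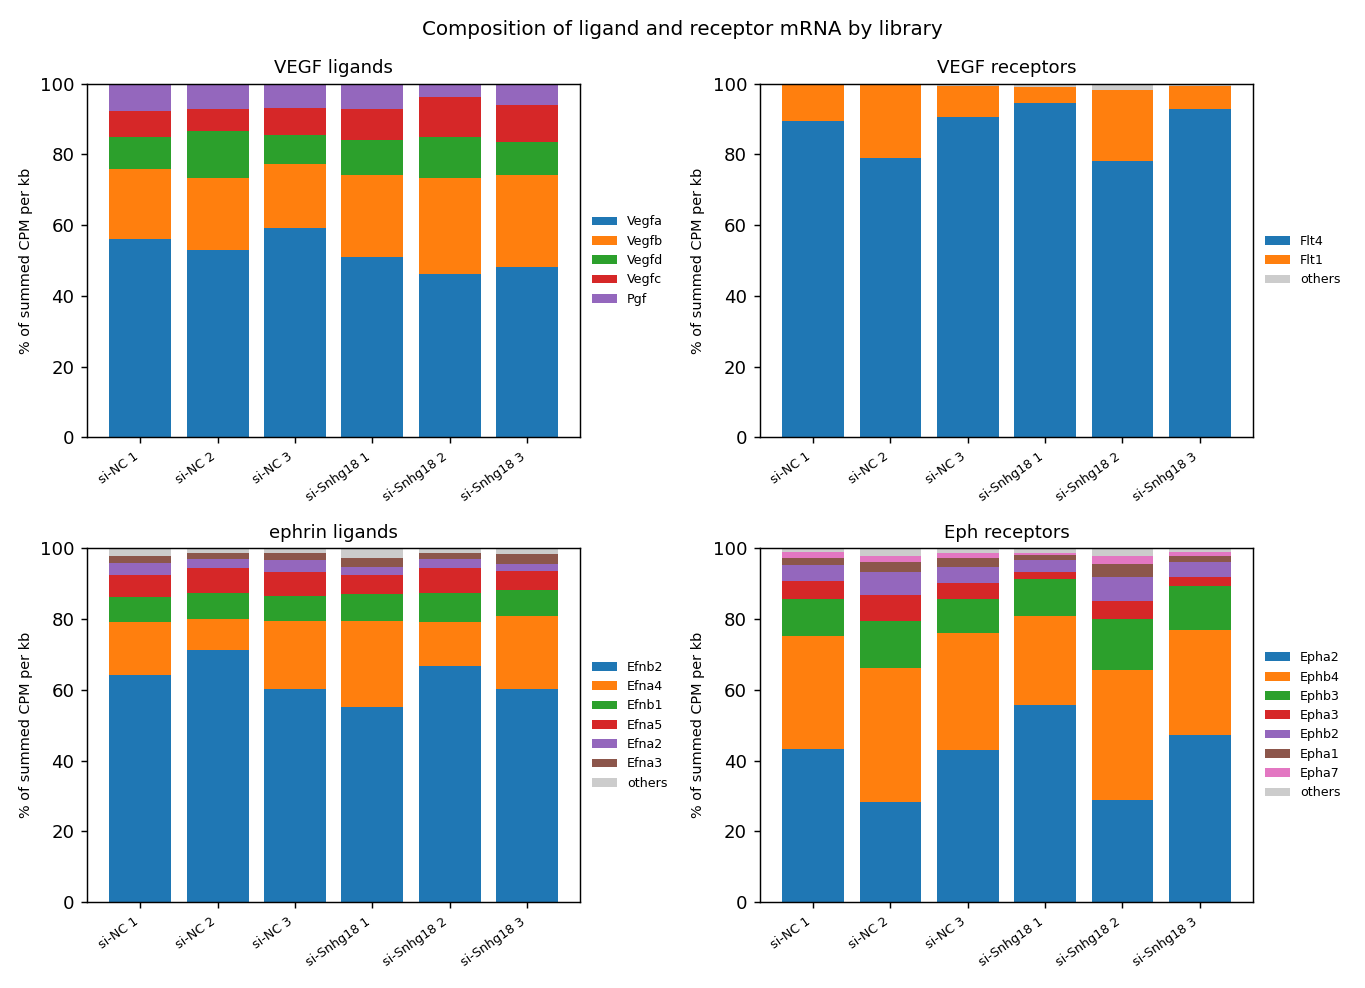
Share of each gene in the summed CPM per kb of its group (y axis, percent) in each of the 6 libraries (x axis) for VEGF ligands, VEGF receptors, ephrin ligands and Eph receptors. *Vegfa* takes 53.1% to 59.3% of the ligand pool in si-NC libraries and 46.1% to 51.1% in si-*Snhg18* libraries, and the share of *Epha2* among Eph receptors is lowest in the libraries numbered 2.

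The promoter windows of *Vegfb* and *Vegfc* are shown because these ligand genes were both higher in si-*Snhg18* cells with the block. They run from 250 bases before to 50 bases after the RefSeq start on GRCm38.p6, 5′ to 3′ on the gene's strand, at chr19:6987602-6987901 (minus) and chr8:54077282-54077581 (plus). Capitals mark the GC box, GGGCGG or its reverse complement CCGCCC.
Vegfb: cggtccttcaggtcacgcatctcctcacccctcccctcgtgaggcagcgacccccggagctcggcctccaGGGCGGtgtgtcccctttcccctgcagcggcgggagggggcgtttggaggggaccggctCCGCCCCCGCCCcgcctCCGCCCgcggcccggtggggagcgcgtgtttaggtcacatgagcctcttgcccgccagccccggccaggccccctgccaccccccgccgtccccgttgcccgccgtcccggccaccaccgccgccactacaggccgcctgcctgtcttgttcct
Vegfc: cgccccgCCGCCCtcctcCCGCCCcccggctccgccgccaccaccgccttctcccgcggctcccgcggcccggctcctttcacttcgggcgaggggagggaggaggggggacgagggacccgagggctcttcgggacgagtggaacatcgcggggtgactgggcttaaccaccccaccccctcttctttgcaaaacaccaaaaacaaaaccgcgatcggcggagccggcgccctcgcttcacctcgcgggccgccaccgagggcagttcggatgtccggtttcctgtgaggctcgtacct
The *Vegfb* window held 4 GC boxes and the *Vegfc* window 2, while neither held ACGTG on either strand. These letters are a form of the core of the hypoxia response element, and its other forms were not searched. Promoter windows were matched for 37 members, and a GC box was found in 25 of them, or 67.6%, against 47.5% of 20467 windows of protein-coding genes. The members' windows were also richer in G and C (median 64.0% against 57.0%). ACGTG, which is contained in the E box CACGTG, occurred in 4 member windows (10.8% against 21.1% of all), and the *Vegfa* window held 2 GC boxes and no ACGTG. These matches describe letters only, and bases outside the windows were not searched.

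Among the VEGF receptors, *Flt4* (VEGFR3) was the most abundant at 16.9 ± 1.46 CPM per kb (SD, n = 3) in si-NC cells, ahead of *Flt1* (VEGFR1) at 2.58 ± 1.22 and *Kdr* (VEGFR2), the main signalling receptor of endothelial cells, at 0.0993 ± 0.0352 CPM per kb. *Flt4* took 86.3 ± 6.40% of the receptor pool in si-NC and 88.5 ± 9.13% in si-*Snhg18* libraries (SD, n = 3 each). It was at 109, 95.4 and 112 CPM in si-NC libraries and at 121, 86.3 and 110 CPM in si-*Snhg18* libraries, with overlapping groups and a log2 fold change of 0.00 (SE 0.14, adjusted p = 0.996 in edgeR).

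*Flt1* was at 13.9, 27.4 and 12.0 CPM in si-NC libraries and at 6.49, 24.7 and 8.49 CPM in si-*Snhg18* libraries. The library numbered 2 stood far above the others in each group, and within each pair the si-*Snhg18* library was the lower. The fitted log2 difference was -0.43 (SE 0.56, adjusted p = 0.686 in edgeR) and -0.56 with the block (adjusted p = 0.0557), while DESeq2 with the block called it at -0.57 (adjusted p = 0.028). *Kdr* was at 0.389, 0.572 and 0.805 CPM in si-NC libraries and 1.07, 1.88 and 0.658 CPM in si-*Snhg18* libraries, from 9 to 49 reads. The groups overlapped, and its log2 fold change of 1.04 (SE 0.49, adjusted p = 0.247) did not pass in either fit.

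*Tek*, the angiopoietin receptor (ENSMUSG00000006386; chromosome 4, 94739289 to 94874976, plus strand), was at 0.820, 1.31 and 0.593 CPM in si-NC libraries and at 0.356, 0.384 and 0.219 CPM in si-*Snhg18* libraries, from 19, 32 and 14 reads and from 9, 10 and 4 reads. Every si-*Snhg18* library lay below every si-NC library, at a level near the limit of detection. The log2 fold change was -1.47 (SE 0.44), with an adjusted p of 0.1 without the block and 0.0341 with it (edgeR). The blocked call was lost without the pair numbered 2 (adjusted p = 0.151) and without the pair numbered 3 (adjusted p = 0.132). The endothelial markers named above, at 13.8 to 15.8 and 13.3 to 18.2 CPM in sum, had 0 of 6 tested genes called in either fit, 0 at an unadjusted p under 0.05 and 0 by DESeq2 and limma-voom. Of these 6, 3 had a log2 fold change above 0 and 3 below. The sum was mostly *Cdh5* (9.64 CPM in si-NC and 9.99 CPM in si-*Snhg18* cells). *Pecam1*, too low to be tested, was at 0.216, 0.572 and 0.212 CPM against 0.158, 0.115 and 0.164 CPM, without overlap. The part of endothelial cells in the value of *Tek* was not tested.

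Of the angiopoietins, *Angpt2*, the context-dependent antagonist of Tek, made up 93.4 ± 5.22% of the summed CPM per kb in si-NC cells (SD, n = 3). *Angpt2* was at 53.9 ± 7.27 CPM in si-NC and 49.5 ± 11.5 CPM after knockdown (SD, n = 3, log2 fold change -0.12, adjusted p = 0.734 in edgeR). *Angpt1*, the agonist of Tek, was at 1.39 ± 0.795 and 0.805 ± 0.730 CPM, and *Angpt4* at 1.63 ± 1.29 and 1.32 ± 0.923 CPM (SD, n = 3). All 4 tested angiopoietin and Tie genes had a log2 fold change below 0 (median -0.53), and *Tek* was the only one of them that passed in the blocked edgeR fit, where DESeq2 with the block called 0 of the 4 (0 at an unadjusted p under 0.05). *Angpt2* overlaps *Mcph1* on the opposite strand, and the strand setting of the counting is not given in the sources used here, so reads of such partners cannot be told apart.

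*Angptl4*, an inhibitor of lipoprotein lipase (ENSMUSG00000002289; chromosome 17, 33773750 to 33781830, minus strand), was the most abundant member, at 212 ± 7.85 CPM per kb (SD, n = 3) in si-NC cells. It was at 677, 728 and 694 CPM in si-NC libraries and at 478, 604 and 628 CPM in si-*Snhg18* libraries. The groups did not overlap, and si-*Snhg18* 1 was the lowest library. Its log2 fold change was -0.30 (SE 0.11, adjusted p = 0.171 in edgeR) without the block and at an adjusted p of 0.0243 with it, which was 0.050 without the pair numbered 2 and 0.0819 without the pair numbered 3.

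*Angptl2*, a secreted pro-inflammatory factor, was at 82.5 ± 6.89 CPM in si-NC and 89.7 ± 2.85 CPM after knockdown (SD, n = 3, log2 fold change 0.12, adjusted p = 0.392 in edgeR). *Angptl6* was at 0.950, 0.898 and 0.678 CPM in si-NC libraries and at 1.46, 1.61 and 1.48 CPM in si-*Snhg18* libraries. Its groups did not overlap and its log2 fold change was 0.85 (SE 0.27, adjusted p = 0.112 in edgeR, and 0.0843 with the block). *Angptl7* had a log2 fold change of -1.47 (SE 1.00, adjusted p = 0.409) with si-*Snhg18* 1 at 0.0396 CPM, under the 3-read limit, and with the block it was -1.79 (adjusted p = 0.055) in edgeR and -2.03 (adjusted p = 0.0118) in DESeq2. *Angptl6*, *Angptl7* and *Angptl8* overlap *Shfl*, *Mtor* and *Dock6* on the opposite strand, which reached 731, 2895 and 1315 reads in a library, so their low counts are uncertain.

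**Figure D3:**
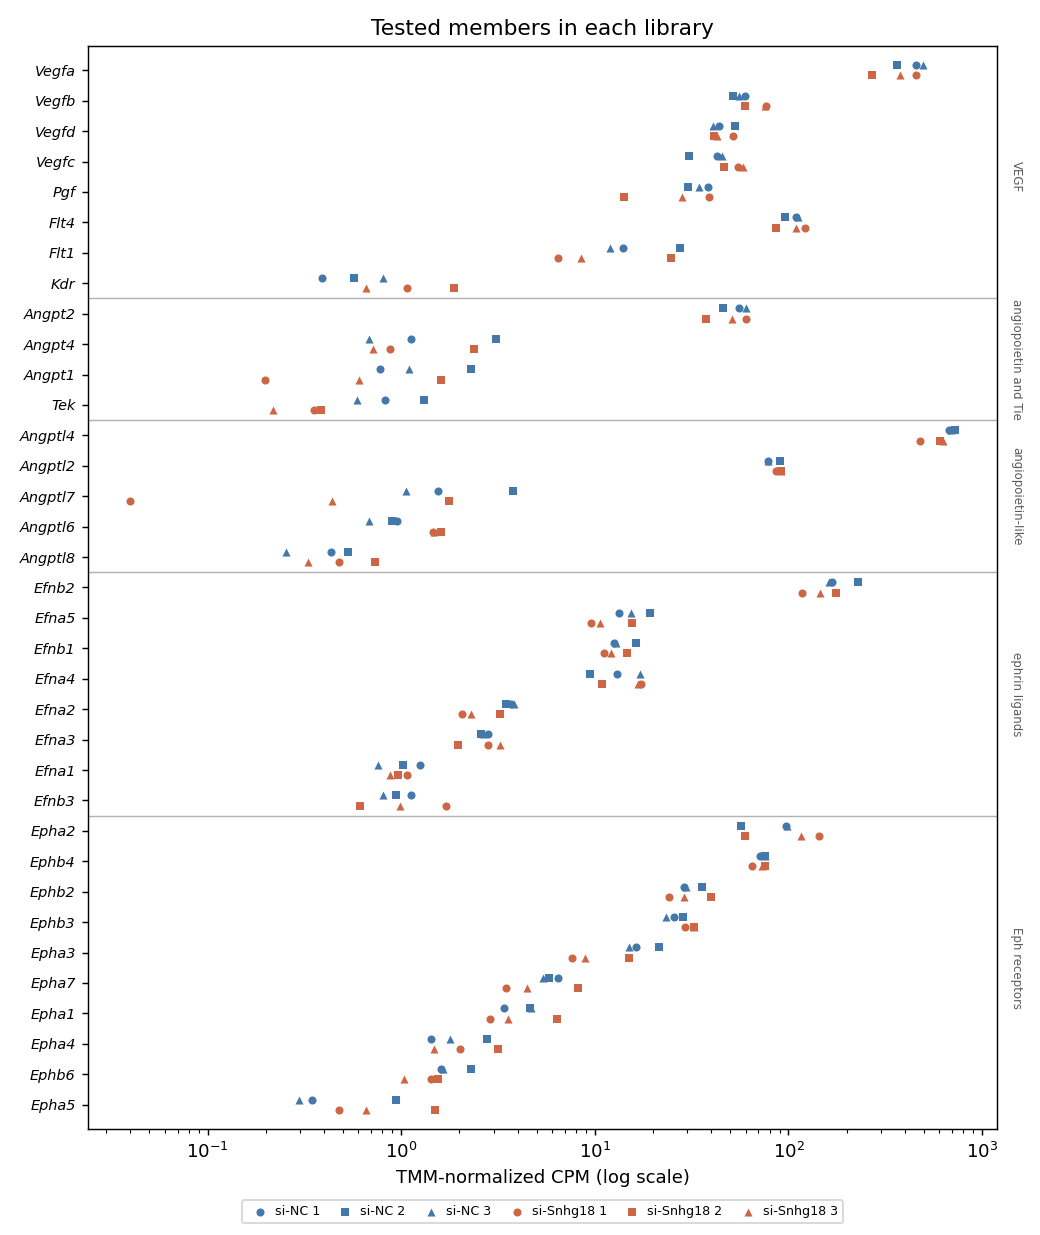
TMM-normalized CPM (x axis, log scale) of the 35 tested members in each of the 6 libraries, with si-NC in blue and si-*Snhg18* in orange and the replicate number given by the shape. Levels run from *Angptl4* and *Vegfa* at the upper end to *Tek*, *Kdr* and *Angptl8* around or under 1 CPM, and the squares, the libraries numbered 2, lie at the same end of both groups for many members.

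The ephrin ligands were led by *Efnb2*, which encodes ephrin-B2, at 38.7 ± 7.94 CPM per kb (SD, n = 3) in si-NC cells, followed by *Efna4* at 8.27 ± 2.43, *Efnb1* at 4.27 ± 0.654 and *Efna5* at 3.97 ± 0.746 CPM per kb. *Efnb2* (ENSMUSG00000001300; chromosome 8, 8617434 to 8661242, minus strand) was at 167, 229 and 161 CPM in si-NC libraries and at 118, 176 and 146 CPM in si-*Snhg18* libraries. The groups overlapped because the library numbered 2 was the highest of each, and the si-*Snhg18* library was the lower of every pair. On the log2 scale the difference was -0.34 (SE 0.19), with an adjusted p of 0.330 without the block and 0.0182 with it (edgeR), or 0.0536 with the block and without the pair numbered 3.

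*Efna5*, which encodes the GPI-anchored ligand ephrin-A5 (ENSMUSG00000048915; chromosome 17, 62604184 to 62881317, minus strand), was at 13.4, 19.3 and 15.3 CPM in si-NC libraries and at 9.54, 15.6 and 10.6 CPM in si-*Snhg18* libraries. The pattern was the same as for *Efnb2*: the groups overlapped through the libraries numbered 2, and every pair was lower in si-*Snhg18*. The fitted log2 difference was -0.42 (SE 0.23, adjusted p = 0.311 in edgeR) and -0.44 with the block (adjusted p = 0.0245), or -0.40 (adjusted p = 0.199) with the block and without the pair numbered 3.

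The promoter windows of *Efna5* and *Efnb2*, the ephrin genes lower in si-*Snhg18* cells with the block, lie at chr17:62881268-62881567 (minus) and chr8:8661193-8661492 (minus) on GRCm38.p6. They are printed as above, with the GC box in capitals.
Efna5: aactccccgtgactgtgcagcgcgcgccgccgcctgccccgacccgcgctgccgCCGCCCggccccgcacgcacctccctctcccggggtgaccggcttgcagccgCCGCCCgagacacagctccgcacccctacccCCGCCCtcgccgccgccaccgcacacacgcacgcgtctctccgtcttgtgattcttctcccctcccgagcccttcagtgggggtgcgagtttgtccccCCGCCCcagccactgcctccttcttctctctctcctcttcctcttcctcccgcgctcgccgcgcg
Efnb2: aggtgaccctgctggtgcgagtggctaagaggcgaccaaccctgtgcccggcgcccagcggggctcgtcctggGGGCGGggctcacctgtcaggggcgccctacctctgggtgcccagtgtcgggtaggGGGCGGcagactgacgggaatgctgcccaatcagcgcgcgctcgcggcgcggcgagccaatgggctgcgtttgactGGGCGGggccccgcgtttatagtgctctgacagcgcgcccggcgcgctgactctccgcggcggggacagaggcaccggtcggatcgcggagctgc
There were 4 GC boxes in the *Efna5* window and 3 in the *Efnb2* window, and no ACGTG in either. GC boxes were thus present in windows of members that were higher and of members that were lower, while the windows of *Tek* and *Epha3* held 0.

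*Efna2* was at 3.67, 3.47 and 3.81 CPM in si-NC libraries and at 2.06, 3.23 and 2.30 CPM in si-*Snhg18* libraries, without overlap, and it passed in neither fit (log2 fold change -0.53, SE 0.23, adjusted p = 0.222, and 0.130 with the block, in edgeR). The other 5 ephrin genes had log2 fold changes from -0.14 (*Efnb1*) to 0.21 (*Efnb3*) and adjusted p of 0.636 or more. *Efna1*, *Efna3* and *Efna4* lie side by side within 66.3 kb of chromosome 3, and their log2 fold changes were -0.06, -0.01 and 0.18.

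Among the Eph receptors, *Epha2* (21.6 ± 6.08 CPM per kb, SD, n = 3) and *Ephb4*, the receptor of ephrin-B2 (19.0 ± 0.558 CPM per kb), were the most abundant in si-NC cells and differed by less than the spread of *Epha2*. *Ephb3*, *Epha3* and *Ephb2* followed at 6.18, 3.11 and 2.88 CPM per kb. *Epha3*, a receptor of ephrin-A ligands including ephrin-A5 (ENSMUSG00000052504; chromosome 16, 63543534 to 63864175, minus strand), was at 16.4, 21.4 and 15.0 CPM in si-NC libraries and at 7.6, 15.1 and 8.88 CPM in si-*Snhg18* libraries. Only si-*Snhg18* 2 reached the si-NC range, and it was the highest library of its group, as si-NC 2 was. The log2 fold change was -0.74 (SE 0.29, adjusted p = 0.174 in edgeR) and -0.78 with the block (adjusted p = 0.00746), or -0.79 (adjusted p = 0.0736) with the block and without the pair numbered 3. Without si-*Snhg18* 2, the fit without the block gave -1.10 (adjusted p = 0.014).

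*Epha2* was at 97.4, 56.9 and 98.8 CPM in si-NC libraries and at 144, 59.9 and 116 CPM in si-*Snhg18* libraries, with the library numbered 2 far below the rest of each group. Its log2 fold change was 0.34 (SE 0.35, adjusted p = 0.596 in edgeR), and with the block 0.29 (adjusted p = 0.0561 in edgeR and 0.0492 in limma-voom). *Ephb4* was at 74.1 ± 2.17 CPM in si-NC and 71.1 ± 5.96 CPM after knockdown (SD, n = 3, log2 fold change -0.06, SE 0.08, adjusted p = 0.699). *Ephb3* did not overlap between the groups (25.7, 28.4 and 23.4 against 29.2, 32.6 and 32.6 CPM) and had a log2 fold change of 0.28 (SE 0.10, adjusted p = 0.161, and 0.0623 with the block). The other 6 tested receptors had log2 fold changes from -0.46 (*Ephb6*) to 0.74 (*Epha5*) and did not pass in either fit, and *Epha1* overlaps the abundant *Zyx* on the opposite strand.

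Much of the spread within groups lay between the libraries numbered 2 and the others. The libraries numbered 2 had the highest CPM in both groups for 16 of the 35 members, or 45.7%, against 32.2% of all genes, and the lowest in both for 9, or 25.7%, against 29.8%. Their mean difference from the other libraries on the log2 scale was 2.17 for *Angptl7*, 1.62 for *Angpt4*, 1.59 for *Angpt1* and 1.4 for *Flt1*, and -0.95 for *Epha2*, -0.75 for *Pgf* and -0.50 for *Vegfa*. For these members the difference between the libraries numbered 2 and the others was larger than that between the groups. In 3 of 3 pairs, 11 members were lower and 8 were higher in si-*Snhg18*, against 30.0% and 29.6% of all genes. The plot of the 7 members called with the block shows the same-numbered libraries joined.

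**Figure D4:**
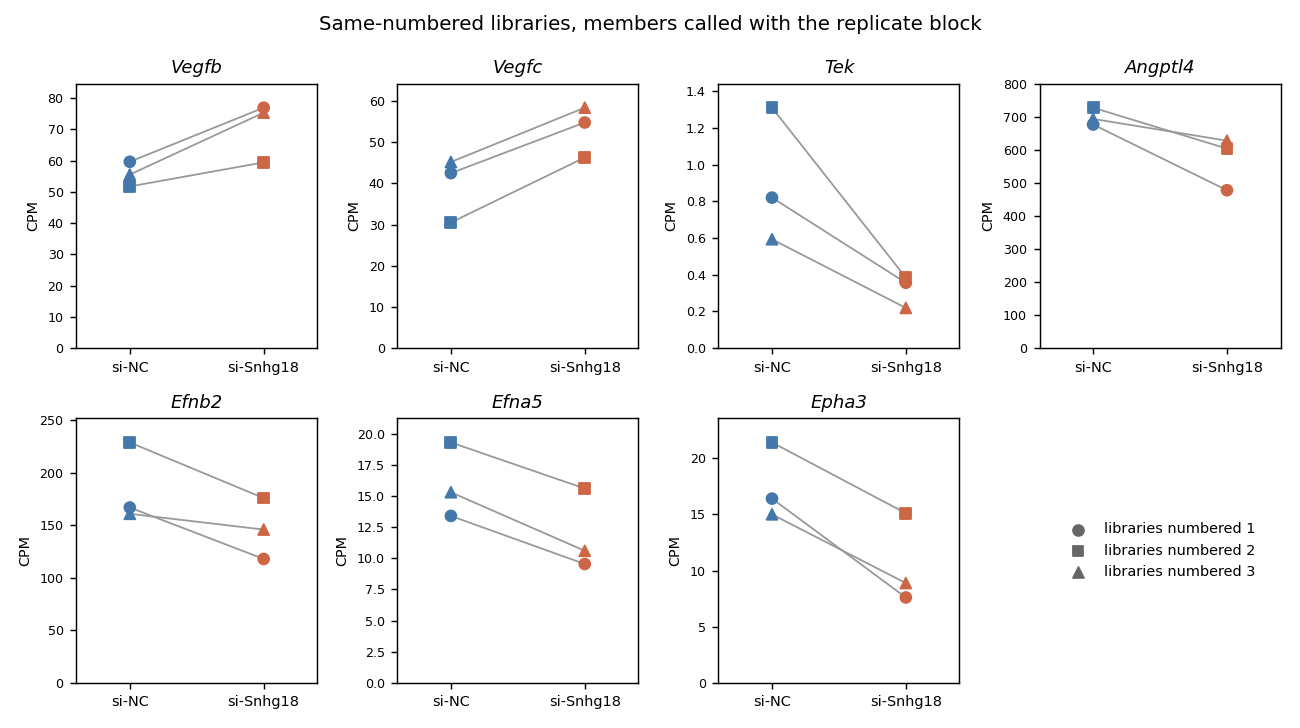
CPM (y axis, from 0) in si-NC and si-*Snhg18* libraries (x axis) of the 7 members called with the replicate block, with lines joining libraries of the same number. All 3 lines rise for *Vegfb* and *Vegfc* and all 3 fall for *Tek*, *Angptl4*, *Efnb2*, *Efna5* and *Epha3*, while the groups are separate only for *Vegfc*, *Tek* and *Angptl4*.

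Levels of cell type markers differed between the libraries numbered 2 and the others too, in both directions. The 5 fibroblast markers summed to 2264, 2957 and 2272 CPM in si-NC libraries and 1375, 2215 and 1579 CPM in si-*Snhg18* libraries, and the 8 smooth muscle markers to 1768, 1896 and 1750 CPM and 1202, 1851 and 1261 CPM. The library numbered 2 had the highest sum of each group, as it did for *Efnb2*, *Efna5* and *Epha3*. The smooth muscle sum was mostly *Acta2* and *Tagln*. These, *Myh11*, *Des* and *Lmod1* were highest in the libraries numbered 2, while *Cnn1* and *Smtn* were not highest there in both groups. *Myocd* was lowest there (1.42, 0.49 and 1.27 CPM against 2.22, 0.884 and 1.04 CPM). The fibroblast sum was mostly *Col1a1*, and *Pdgfra* of the fibroblast list was lowest in the libraries numbered 2 (479, 431 and 519 CPM against 421, 304 and 402 CPM). The 5 pericyte markers (504.8, 417.1 and 529.2 against 478.7, 310.2 and 447.9 CPM) and the 3 lymphatic endothelial markers (1020, 747.7 and 1099 against 1201, 660.0 and 1016 CPM) also had their lowest sum in the libraries numbered 2. The pericyte sum was mostly *Pdgfrb* (447 CPM in si-NC cells). *Cspg4* of that list was highest in the libraries numbered 2 (20.8, 57.9 and 18.3 against 6.45, 34 and 8.82 CPM). The lymphatic endothelial sum was almost all *Pdpn* (953 CPM in si-NC cells), with *Prox1* at 1.39 CPM, so it follows *Pdpn* rather than the list. Of the 8 smooth muscle markers, 1 was lower without the block (3 in DESeq2) and 4 with it, *Tagln*, *Myh11*, *Cnn1* and *Des*. Over all tested genes, edgeR called 3.71% lower without the block and 13.6% with it. *Tagln*, an actin-binding protein of smooth muscle, fell from 684 ± 6.88 to 481 ± 70.3 CPM (SD, n = 3, log2 fold change -0.51, adjusted p = 0.0427 in edgeR). Of the 23 tested markers of other cell types, 0 passed without the block (2 at an unadjusted p under 0.05, and 1 passed in DESeq2) and 5 were lower with it, *Pdgfra*, *Col1a1*, *Cspg4*, *Kcnj8* and *Tubb3*. Without the block, 9 of the 23 had a log2 fold change above 0 and 14 below, among the latter all 5 pericyte markers (median -0.90). The part of these markers' cells or state in the members' values was not tested.

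Genes that act with the members were counted in 6 lists of 111 genes, of which 102 were tested. Without the block 9 of the 102 were higher and 7 lower, where over all tested genes 3.65% were higher and 3.71% lower. With the block 26 and 15 of the 102 were, where over all tested genes it was 13.6% each. These shares of all tested genes are also the background for each list below. The median log2 fold change of the list genes was 0.06 in both fits. The counts rested on the libraries used: without the block 0 were called after leaving out si-NC 1, 2 or 3 or si-*Snhg18* 3 (25 to 27 at an unadjusted p under 0.05), 4 after leaving out si-*Snhg18* 1 and 38 after leaving out si-*Snhg18* 2, and the block called 7 without the pair numbered 3.

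Of 23 tested partners and signalling proteins of VEGF receptors, 2 were higher and 2 lower without the block and 8 and 3 with it. *Nrp1*, the VEGF co-receptor neuropilin-1, fell from 83.2 ± 1.93 to 52.0 ± 7.46 CPM (SD, n = 3, log2 fold change -0.68, adjusted p = 0.0215 in edgeR), as did *Hspb1*, a small heat shock protein phosphorylated downstream of p38 (-0.50, adjusted p = 0.0265). *Plcg1*, the phospholipase C recruited by activated VEGF receptors, rose from 86.4 ± 7.24 to 138 ± 8.71 CPM (log2 fold change 0.68, adjusted p = 0.0133), and *Plxnd1*, a semaphorin receptor, from 27.4 ± 0.981 to 56.5 ± 13.1 CPM (1.05, adjusted p = 0.0214). *Nrp2*, the co-receptor for Vegfc, had a log2 fold change of 0.29 that passed only with the block (adjusted p = 0.174 without it and 0.0102 with it). The genes of this list that passed thus included receptors and signal transducers in both directions.

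Of 30 tested binding partners and effectors of ephrins and Eph receptors, 6 were higher and 0 lower without the block (0 lower also by DESeq2 and limma-voom) and 8 and 1 with it, and the median log2 fold change was 0.10. *Nck2*, an adaptor that links receptors to the actin cytoskeleton, rose from 14.3 ± 0.944 to 23.9 ± 2.08 CPM (SD, n = 3, log2 fold change 0.74, adjusted p = 0.018 in edgeR). *Rasa1*, a Ras GTPase-activating protein that binds activated Eph receptors, rose from 352 ± 32.5 to 584 ± 99.2 CPM (0.73, adjusted p = 0.0344), and the tyrosine kinase *Abl1* rose by 0.33 on the log2 scale (adjusted p = 0.0318).

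Of 9 tested partners of angiopoietins and Tie receptors, the integrin genes *Itgb1* (log2 fold change -0.42, adjusted p = 0.0216) and *Itgav* (-0.38, adjusted p = 0.0421) fell without the block, and with it 1 was higher, the integrin gene *Itga5* (0.54, adjusted p = 0.00222), and 4 were lower (edgeR throughout). The list for angiopoietin-like proteins held 11 tested genes, among them lipases, proteases and nuclear receptors. Of these, 0 passed without the block in edgeR (4 had an unadjusted p under 0.05) and limma-voom, and 2 in DESeq2. With the block 4 were higher, including the protease gene *Furin* (0.51, adjusted p = 0.00369) and the nuclear receptor genes *Ppard* (0.40, adjusted p = 0.00653) and *Pparg* (1.27, adjusted p = 0.0092), and the protease gene *Pcsk6* was lower (-0.56, adjusted p = 0.0107).

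Among 20 genes of the hypoxia response, which include the HIF subunit genes *Hif1a*, *Epas1* and *Arnt* beside genes that low oxygen induces, 1 was higher and 1 lower without the block, *Egln3*, a HIF prolyl hydroxylase (121 ± 8.10 to 157 ± 3.51 CPM, SD, n = 3, log2 fold change 0.37, adjusted p = 0.0331 in edgeR), and *Adm*, the vasodilator adrenomedullin (499 ± 20.7 to 379 ± 23.2 CPM, -0.39, adjusted p = 0.031). With the block 5 were higher, those 3 subunit genes, *Egln1* and *Egln3*, and 2 were lower. Of 9 tested regulators of *Vegfa* transcription or mRNA stability, *Elavl1*, which binds AU-rich elements and stabilizes mRNA (85.7 ± 2.06 to 67.0 ± 1.73 CPM, -0.35, adjusted p = 0.0253), and *Zfp36l2*, which binds the same elements and promotes decay (-0.38, adjusted p = 0.0458), fell, and 0 rose. With the block 4 of these regulators were lower and 0 higher, and DESeq2 and limma-voom also called 0 higher in both designs. The blocked fit without the pair numbered 2 and the fit without si-*Snhg18* 2 each called 1 higher, with 3524 and 3246 of all genes. *Zfp36l1* was the only tested regulator above 0 in the planned fit (log2 fold change 0.58, adjusted p = 0.414 in edgeR).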

How the data were processed

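The 3 si-NC and 3 si-*Snhg18* libraries of mPASMCs were prepared with a stranded mRNA kit. The authors aligned the reads to mm10 with HISAT2, per the submitters' processing notes, and deposited a table of raw counts, whole numbers of reads for each gene, with exon lengths and GRCm38 positions. The counting program and its strand setting are not given in the sources used here. Groups were taken from the sample labels.

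Counts were analysed in R 4.3.3. Genes were kept by filterByExpr (minimum count 10), libraries were scaled with TMM factors, and groups were compared over all 14531 kept genes with the quasi-likelihood test of edgeR 4.0.16 (two-sided, Benjamini-Hochberg over all genes, called at an adjusted p under 0.05). Depth was 18097718 to 25988746 reads, and the common biological coefficient of variation was 0.218. CPM per kb divides by exon length. Single shares were compared with exact permutation tests.

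The pairing rests on the repeat numbers in the labels, and neither these nor the methods say whether libraries of the same number share a culture or a day. Each library's deviation from its group mean was correlated over all genes with that of the library of the same number. For the numbers 1, 2 and 3, r was 0.41, 0.742 and 0.359. All were over 0.1, so the fit with the number as a block is given beside the planned fit. Deviations from a group mean cancel out within the group, so these values are not separate results. Si-NC 3 correlated more with si-*Snhg18* 1 (r = 0.497), and r was 0.186 for si-NC 1 with si-*Snhg18* 3. The values thus set the libraries numbered 2 apart but do not decide how those numbered 1 and 3 pair. DESeq2 1.42.0, limma-voom (limma 3.58.1), the likelihood ratio test, other scalings and filters and left-out libraries were tried, and the fits were tested on simulated data.

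The members and the gene lists were chosen with earlier results of these data known. Members called in either fit are given by library, and from each list up to 3 genes per direction with the smallest p, without the block where any passed and otherwise with it. Promoter windows are from RefSeq (GRCm38.p6), and *Angptl4*, a called member, was not matched in that table. Some results that the rule would name are not reported here.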

Additional observations from a re-analysis of the deposited data

How the results depend on the processing

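Counts of called genes depended on the replicate block and on single libraries. The planned fit called 0 members, 1069 genes in all and 16 genes of the pathway lists. The replicate block called 7, 3954 and 41, DESeq2 with the block 7, 3102 and 40, and limma-voom with the block 8, 3981 and 41. Without the libraries numbered 1, the paired fit called 12, 4614 and 49, without those numbered 2 it called 8, 3524 and 45, and without those numbered 3 it called 0, 737 and 7. DESeq2 without the block called 2069 genes in all, and the likelihood ratio test 1 member. Requiring also a 1.5-fold change left 533 genes in all and 7 of the lists. Leaving out each library in turn gave 0 to 4 members, 0 to 3246 genes and 0 to 38 list genes. The count of all genes was 0 without si-NC 1, si-NC 3 or si-*Snhg18* 3 (2505, 2713 and 2446 at an unadjusted p under 0.05), 156 without si-NC 2, 325 without si-*Snhg18* 1 and 3246 without si-*Snhg18* 2. The members called without si-*Snhg18* 2 were *Epha3*, *Vegfb*, *Efna2* and *Efna5*. Other scalings and filters called 0 members, and the median member log2 fold change stayed between -0.10 and -0.01 in all 21 fits.

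Several members with no call in the planned fit changed sign in another, and the cause was not tested. *Epha1* (0.02) was at -0.03 with the replicate block, -0.04 with DESeq2 and the block, -0.04 with limma-voom, and -0.31 in the paired fit without the libraries numbered 2. That fit also put *Vegfd* at 0.16 and *Efna3* at 0.15. Without the libraries numbered 1, the paired fit put *Epha4* at -0.01, *Epha7* at 0.16, *Ephb2* at 0.07, *Efna1* at 0.04 and *Efnb3* at -0.16. With single libraries left out, log2 fold changes ran from -0.40 to 0.24 for *Epha1*, -0.18 to 0.47 for *Epha4*, -0.57 to 0.12 for *Epha7*, -0.24 to 0.14 for *Ephb2* and -0.11 to 0.01 for *Ephb4*. They ran from -0.22 to 0.12 for *Efna1*, -0.16 to 0.18 for *Efna3*, -0.01 to 0.42 for *Efna4*, -0.27 to 0.51 for *Efnb3*, -0.29 to 0.05 for *Angpt2*, -1.04 to 0.57 for *Angpt4*, -1.26 to 0.03 for *Flt1* and -0.13 to 0.10 for *Vegfd*. The 7 members called with the block kept their sign in every fit that tested them. So did members not called with it, such as *Vegfa*, *Kdr* and *Angptl6*. All fits share the libraries that gave the calls, so a kept sign is not separate evidence for them.

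With *Tek* at 4 to 32 reads and *Kdr* at 9 to 49 reads in a library, depth limits the precision of their fold changes, and with 3 libraries per group no permutation test can go below 0.1.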
